A study of Homo sapiens with 4 samples.

Results

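The aryl hydrocarbon receptor (AHR) axis and the tryptophan-degrading enzymes linked to it were described by 9 genes: AHR, ARNT, AHRR, TIPARP, CYP1A1, CYP1B1, IDO1, KMO and KYNU. They were chosen by name, with earlier results of these data known, and every probe set annotated to 1 of them and to no other gene was used. All 9 were found, with 23 probe sets, among 19741 genes and 54675 probe sets in all. ARNT had 7 of these probe sets, CYP1B1 and KYNU 4 each and KMO 3, and the other 5 genes had 1 each.

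RNA came from human lung adenocarcinoma cell lines: CL1-5, an invasive derivative, and CL1-0, its less invasive parent. There were 4 groups of 1 array each: CL1-5 with G9a shRNA (the label reads shRNA2), CL1-5 with control shRNA, CL1-0 with HA-tagged G9a (HA-G9a) and CL1-0 with control vector. G9a, the product of EHMT2, methylates lysine 9 of histone H3. All 4 populations had been stably transduced and selected with puromycin for 2 weeks, and the lines carried different controls (an shRNA and a vector). Whether each population was a clone or a pool is not given in the sources used here, and neither is the sequence of the shRNA. Total RNA was made into biotin-labelled cRNA for Affymetrix arrays. No group had replicates, so differences within a line carry no p-value and no replicate check.

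AHR is a ligand-activated transcription factor of the basic helix-loop-helix PAS family. After binding a ligand such as a dioxin or a tryptophan metabolite it enters the nucleus, pairs with ARNT and binds DNA elements with the core GCGTG, where it turns on CYP1A1, CYP1B1, and its own feedback inhibitors AHRR and TIPARP. Kynurenine, which IDO1 makes from tryptophan after a deformylation step, is itself an AHR ligand, while KMO and KYNU carry it further towards NAD.

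The start-site regions of the target genes are shown because they are where the AHR core could be looked for, with GCGTG on either strand in capitals (CACGC where it lies on the other strand). The RefSeq promoter table of GRCh38.p14, which runs from 250 bases before to 50 after each start, was searched for 7 of the 9 genes, in 10 windows. It had no entry for CYP1B1, and IDO1 was left out of the search. The CYP1A1 window is chr15:74725479-74725778 on the minus strand, the first TIPARP window chr3:156674340-156674639, the second AHRR window chr5:322360-322659 and the KYNU window chr2:142877414-142877713, the last 3 on the plus strand.
CYP1A1: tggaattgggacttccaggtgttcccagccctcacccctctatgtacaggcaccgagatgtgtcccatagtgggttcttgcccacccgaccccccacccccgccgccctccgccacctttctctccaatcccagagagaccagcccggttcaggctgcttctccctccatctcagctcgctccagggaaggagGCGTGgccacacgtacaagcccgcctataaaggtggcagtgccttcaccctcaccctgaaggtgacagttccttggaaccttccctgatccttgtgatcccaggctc
TIPARP: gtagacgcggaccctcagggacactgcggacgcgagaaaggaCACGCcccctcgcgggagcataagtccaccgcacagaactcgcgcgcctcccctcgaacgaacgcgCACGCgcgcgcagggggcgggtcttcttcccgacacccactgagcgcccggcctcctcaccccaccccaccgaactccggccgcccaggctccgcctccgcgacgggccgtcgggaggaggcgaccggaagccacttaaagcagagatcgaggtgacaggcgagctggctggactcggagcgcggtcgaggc
AHRR: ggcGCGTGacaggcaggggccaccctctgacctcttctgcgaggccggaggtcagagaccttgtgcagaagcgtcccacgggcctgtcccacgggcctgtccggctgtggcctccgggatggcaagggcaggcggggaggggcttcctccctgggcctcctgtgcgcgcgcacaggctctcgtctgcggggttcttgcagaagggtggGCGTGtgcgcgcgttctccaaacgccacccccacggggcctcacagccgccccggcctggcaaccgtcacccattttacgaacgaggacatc
KYNU: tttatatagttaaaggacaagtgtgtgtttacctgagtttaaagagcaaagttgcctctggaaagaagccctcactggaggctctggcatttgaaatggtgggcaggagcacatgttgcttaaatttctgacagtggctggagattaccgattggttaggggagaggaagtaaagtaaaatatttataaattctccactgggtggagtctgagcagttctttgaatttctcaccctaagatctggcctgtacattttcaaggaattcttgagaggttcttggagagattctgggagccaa
The core lay 57 bases before the start in CYP1A1, at 208 and 142 bases before it in TIPARP (on the other strand both times), and at 247 and 42 bases before it in this AHRR window. The other AHRR window held it 30 bases before the start, and AHR held it 38 bases after the start. It was in 5 of the 10 windows and in 4 of the 7 genes, and these letters were in no window of ARNT, KMO or KYNU. Of all 35116 windows in the table, 36.5% held it, so its presence in some of these windows is common, and a match is not a binding site.

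The targeted gene went with the labels. EHMT2, by its bright probe set, read 28.1 with G9a shRNA against 376 with control shRNA in CL1-5, and 862 with HA-G9a against 420 with the vector in CL1-0. A second probe set read 9.98 against 34.2 in CL1-5, and 44.2 against 38.0 in CL1-0, within 2-fold. The third was dim, at 7.89 or below on all arrays. The 2-fold difference with HA-G9a thus rests on the bright probe set. The values are signals as deposited, on a linear scale. The arrays differed in brightness, with a 2% trimmed mean of 121 for G9a shRNA and of 85.1 to 93.5 for the other 3, and over all measured genes the median log2 ratio was 0.42 for the knockdown, -0.08 for HA-G9a and -0.01 between the controls. Ratios below are therefore log2 ratios relative to the median gene of that comparison. Signals under 3.35 (the 25th percentile of all values) were set to it, and a gene was counted where the brighter of the 2 arrays reached 12.5 (the median of all values). How far ratios from different probe sets of a gene scatter gives a technical scale: their pooled SD was 0.54 for the knockdown, 0.51 for HA-G9a and 0.65 between the controls. Among probe sets reaching a stricter filter of 84.2 (the 75th percentile of all values) it was 0.30, 0.25 and 0.41. As it comes from the same 2 arrays, this SD holds no spread between arrays or cultures. Of 10 type II alveolar markers on the arrays, the cell type the labels name as the origin, 5 to 7 reached 12.5 on each array; SFTPC read 29.8 and 33.5 in CL1-5 with G9a shRNA and control shRNA, and 6.72 and 21.3 in CL1-0 with HA-G9a and vector. NKX2-1, a lung transcription factor among these markers, read 3.87 with G9a shRNA against 29.6 with control shRNA, and 60.2 with HA-G9a against 31.2 with vector. Of 8 measured in CL1-5, NKX2-1 was the 1 at least 2-fold lower with G9a shRNA, and it reached 12.5 only through the control array. The 2 higher were ABCA3 (47.4 against 16.2) and NAPSA (18.4 against 6.26, reaching 12.5 only through the G9a shRNA array). Among all genes, 8.13% were higher and 7.76% lower. With HA-G9a 1 of 6 was higher and 1 lower, against 5.46% and 3.74% of all genes.

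In CL1-5 with G9a shRNA, AHR, the 4 targets of it among the 9 genes and kynureninase were higher than with control shRNA. AHR, TIPARP, CYP1B1, CYP1A1, AHRR and KYNU were each at least 2-fold higher with G9a shRNA than with control shRNA relative to the median gene, 6 of the 8 measured genes, while ARNT and IDO1 lay within 2-fold, 0 were lower and KMO was below the filter. Among all 13045 genes measured in this comparison, 8.13% passed 2-fold on the higher side and 7.76% on the lower side (1060 and 1012 genes). As the 9 genes were chosen with earlier results of these data known, that choice may set part of the contrast with these shares. Without the centring on the median gene the counts over all genes were 2198 and 618, and the count of 6 of the 9 genes was the same. As these are cell populations measured in bulk, more cells expressing a gene and more RNA per cell cannot be told apart. AHR, AHRR, CYP1A1 and KYNU reached the filter only through the G9a shRNA array, so each of these could be counted only because it was bright there; CYP1B1 and TIPARP reached it on both arrays. By probe set, 11 of 17 measured were at least 2-fold higher and 0 lower. The median ratio of the 8 genes was 2.28, against 0 for all genes by construction.

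**Figure D1:**
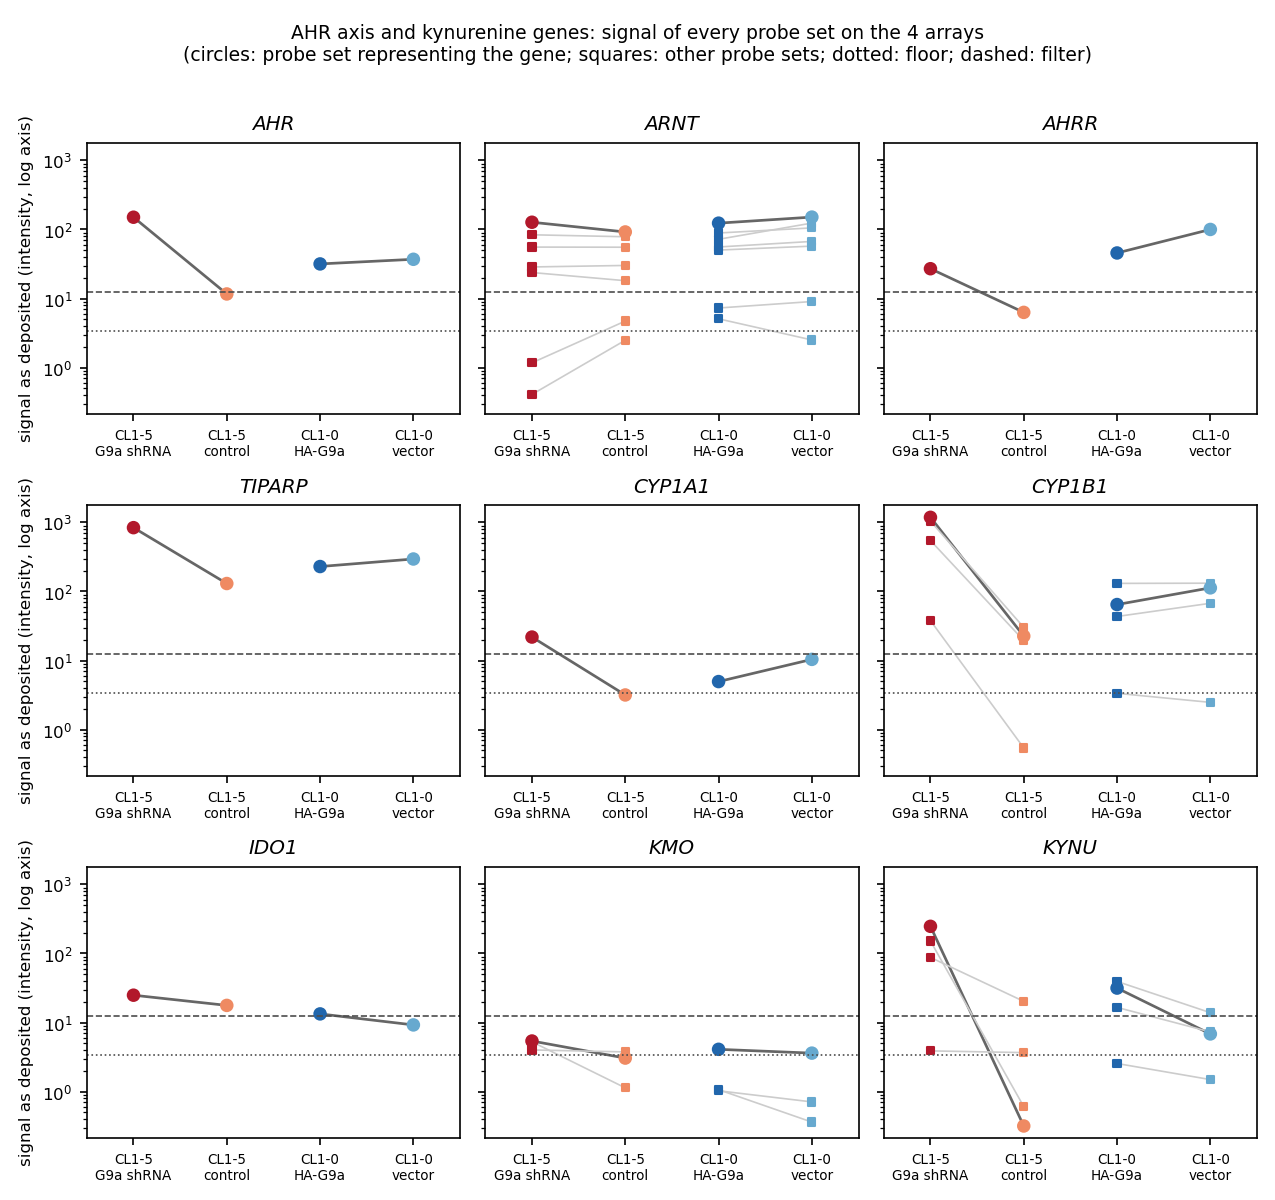
Signal as deposited (log axis) of all 23 probe sets of the 9 genes on the 4 arrays, with lines joining the perturbed array and its control in each line. Circles are the probe set that represents the gene and squares the others; the dotted line is the floor of 3.35 and the dashed line the filter of 12.5. In CL1-5, AHR, AHRR, TIPARP, CYP1A1, CYP1B1 and KYNU stand higher with G9a shRNA than with control shRNA, while KMO lies near the floor on every array.

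The receptor gene AHR, measured by 1 probe set, read 150.4 in CL1-5 with G9a shRNA against 11.6 with control shRNA, and 31.7 in CL1-0 with HA-G9a against 37.0 with vector. The G9a shRNA array was the highest and the CL1-5 control the lowest, with both CL1-0 arrays between them and close to each other. Its relative log2 ratio was 3.27 in the knockdown comparison, the 40th highest of 13045 genes. The CL1-5 control value lay just below the filter.

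ARNT, the partner that AHR needs to bind DNA, did not follow the receptor. Its brightest probe set read 127 with G9a shRNA against 92.1 with control shRNA in CL1-5, and 123 with HA-G9a against 151 with vector in CL1-0. The relative log2 ratio was 0.05 in the knockdown comparison, and the 5 measured probe sets ranged from -0.49 to 0.05. ARNT is also the partner of the hypoxia-inducible factors. Its other 2 probe sets stayed at 9.04 or below on every array.

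AHRR, the repressor that competes with AHR for ARNT, read 27.0 with G9a shRNA against 6.29 with control shRNA in CL1-5, and 45.7 with HA-G9a against 100.05 with vector in CL1-0. It was higher in both CL1-0 arrays than in either CL1-5 array, so the knockdown array stayed below the CL1-0 level. Its relative log2 ratio in the knockdown comparison was 1.68. This ratio was 0.74 with the floor set at the median of all values and 0.60 with 16 added to each signal in place of a floor.

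TIPARP, which encodes the mono-ADP-ribosyltransferase PARP7 that limits AHR signalling, was the bright member with a single probe set. It read 840.02 with G9a shRNA against 130.4 with control shRNA in CL1-5, and 230 with HA-G9a against 295 with vector in CL1-0. The knockdown array was well above the other 3, and the CL1-5 control was the lowest. The relative log2 ratio was 2.27, and it ranged from 2.20 to 2.69 over all settings tried.

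CYP1B1, a cytochrome P450 of xenobiotics and estrogens and a target of AHR, differed most among the targets. Its brightest probe set read 1185 with G9a shRNA against 22.6 with control shRNA in CL1-5, and 64.6 with HA-G9a against 113 with vector in CL1-0. The next read 1046 against 30.2 and 131 against 132, and one more 547 against 19.5 and 43.4 against 67.5, in the same order. All 3 placed the knockdown array highest, the CL1-5 control lowest and the CL1-0 arrays between. The dimmest probe set read 37.8 with G9a shRNA against 0.54 with control shRNA, and 3.35 and 2.48 in CL1-0 with HA-G9a and vector. Relative log2 ratios of the 4 probe sets in the knockdown comparison were 3.08 to 5.29, and the brightest was the 10th highest of 13045 genes. The lowest of these ratios comes from the dimmest probe set, whose control value was below the floor, so it is a lower bound.

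CYP1A1, the classical AHR target in liver and lung, was dim. It read 21.9 with G9a shRNA against 3.17 with control shRNA in CL1-5, and 4.95 with HA-G9a against 10.4 with vector in CL1-0. Only the G9a shRNA array reached the filter. As the control value was below the floor, the relative log2 ratio of 2.28 is a lower bound of at least 4.87-fold on that floor; it was 0.44 with the floor at the median of all values and 0.64 with 16 added.

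**Figure D2:**
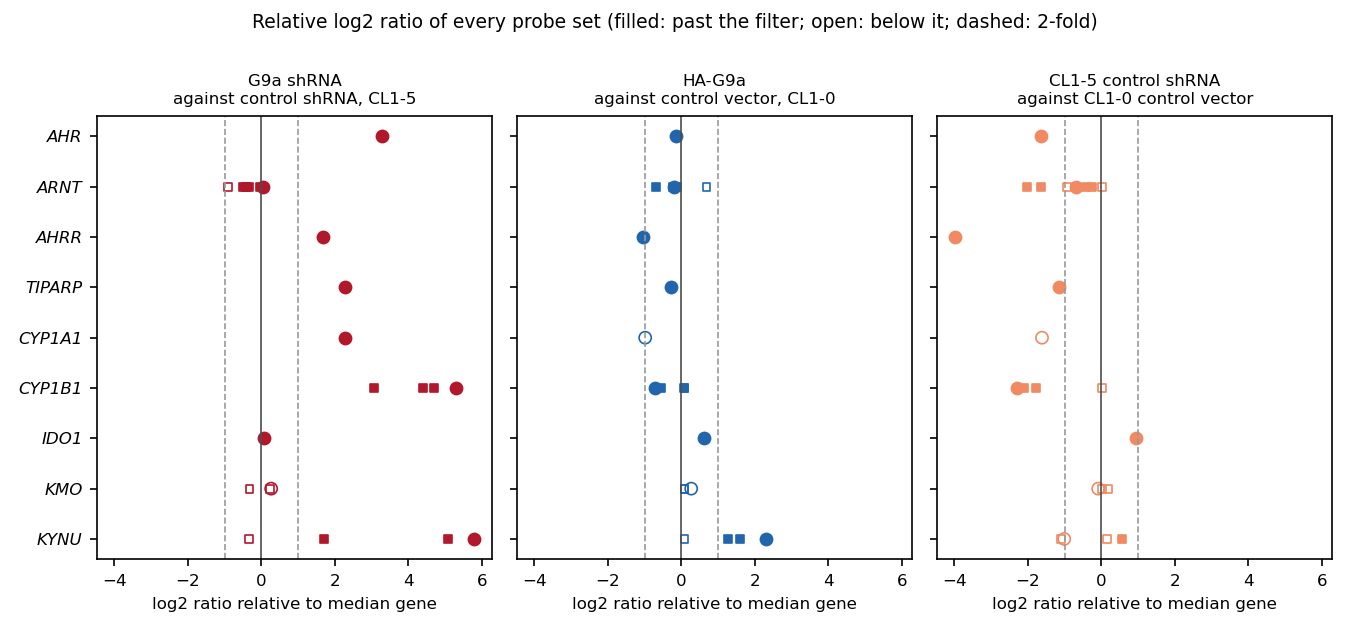
Log2 ratio relative to the median gene for each probe set (x axis, the same in the 3 panels) by gene. The panels give G9a shRNA against control shRNA in CL1-5, HA-G9a against vector in CL1-0, and the CL1-5 control against the CL1-0 control; circles represent the gene, filled symbols passed the filter, and dashed lines mark 2-fold. KYNU is the gene past 2-fold on the higher side in both the knockdown and the HA-G9a panel.

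The kynurenine enzymes differed in size of ratio, with KYNU far from the median gene, IDO1 near it and KMO below the filter. KYNU, kynureninase, cleaves kynurenine and 3-hydroxykynurenine. Its brightest probe set read 247 with G9a shRNA against 0.32 with control shRNA in CL1-5, and 31.5 with HA-G9a against 6.83 with vector in CL1-0. A second read 152 against 0.61 and 16.6 against 7.31, and another 87.7 against 20.2 and 39.4 against 13.9. These 3 were higher on the perturbed array of either line. The fourth stayed between 1.49 and 3.88 on all arrays.

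The KYNU probe sets disagreed on the CL1-5 control, where 2 were below the floor and 1 read 20.2, above the filter. The relative log2 ratios of the 3 measured probe sets were 5.78, 5.08 and 1.69 in the knockdown comparison, the first 2 being lower bounds. The ratio of the brightest was at least 55.1-fold on the floor used. With the floor at the 10th percentile of all values it was 7.54 on the log2 scale. It was 3.94 with the floor at the median of all values, 3.67 with 16 added and 3.07 with the mean over all 4 probe sets. Under these last 3 settings CYP1B1 had the higher ratio, 5.34, 4.61 and 4.38, so the order of the 2 genes turns with the setting. The probe set at 87.7, which rests on no floor, read higher with G9a shRNA as well.

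IDO1, indoleamine 2,3-dioxygenase, the first step of tryptophan breakdown and an interferon-gamma target, was dim on every array. It read 24.9 with G9a shRNA against 17.7 with control shRNA in CL1-5, and 13.3 with HA-G9a against 9.23 with vector in CL1-0. Both CL1-5 arrays were above both CL1-0 arrays. Its relative log2 ratio was 0.07 for the knockdown and 0.61 for HA-G9a. KMO, kynurenine 3-monooxygenase, stayed at or below 5.39 in all 3 probe sets on all 4 arrays, under the filter in each comparison, so no ratio is given.

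**Figure D3:**
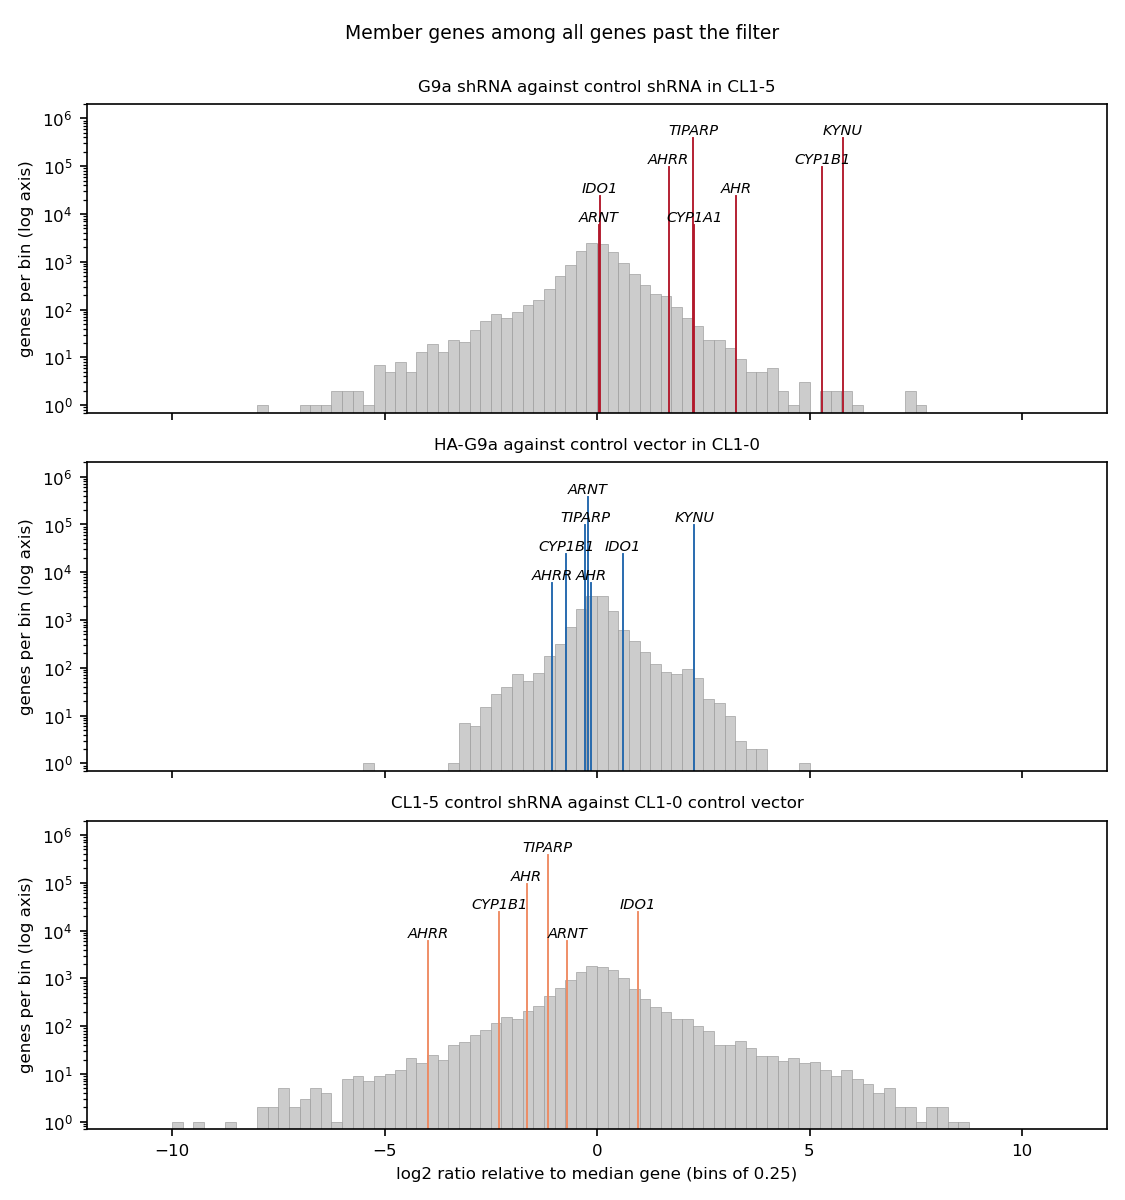
Number of genes (log axis) by log2 ratio relative to the median gene, in bins of 0.25, for all genes past the filter in each of the 3 comparisons; vertical lines mark those of the 9 genes that passed it. In the knockdown comparison CYP1B1 lies at 5.29 and KYNU, a lower bound, at 5.78, both in the right tail; in the HA-G9a comparison KYNU lies to the right at 2.29, and between the controls AHRR lies to the left at -3.98.

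With HA-G9a in CL1-0 the measured genes lay within 2-fold, apart from KYNU and AHRR. Of the 7 measured genes, KYNU was at least 2-fold higher and AHRR at least 2-fold lower with HA-G9a than with vector, and 5 lay within 2-fold. Among all 12791 genes measured, 5.46% passed 2-fold on the higher side and 3.74% on the lower side (699 and 479 genes). With the arrays scaled to one median these counts were 555 and 704. KYNU had a relative log2 ratio of 2.29, the 111th highest, and its 3 measured probe sets ranged from 1.26 to 2.29. The brightest reached the filter only through the HA-G9a array, and its ratio was 1.41 with the floor at the median of all values, 1.13 with 16 added and 1.28 with the mean over all probe sets. AHRR had a ratio of -1.05, just past 2-fold, and the ratio lay between -1.21 and -0.84 over the settings tried.

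The remaining measured AHR genes had ratios within 2-fold with HA-G9a, most of them below 0. AHR had a ratio of -0.14, TIPARP of -0.28 and ARNT of -0.21. CYP1B1 had -0.72 by its brightest probe set and 0.07 and -0.55 by the other 2 measured, so its probe sets did not share a sign. CYP1A1 did not reach the filter in CL1-0. The SD between probe sets was 0.51 in this comparison, and 0.25 for those reaching the stricter filter. The CYP1B1 probe set that was brightest over the 4 arrays reached that filter, and its ratio of -0.72 is larger in size than either SD. The one with a ratio of 0.07 reached that filter too. It was the brighter of these 2 on both CL1-0 arrays, at 131 with HA-G9a and 132 with vector against 64.6 and 113. A lower CYP1B1 with HA-G9a thus depends on the probe set chosen.

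Between the control populations the AHR genes were lower in CL1-5. Of the 6 genes measured, AHR, AHRR, TIPARP and CYP1B1 were at least 2-fold lower in the CL1-5 control than in the CL1-0 control, 0 were at least 2-fold higher, and ARNT and IDO1 lay within 2-fold. AHR and AHRR reached the filter only through the CL1-0 array, so each could be counted only because it was bright there, while IDO1 reached it only through the CL1-5 array. Among all 12925 genes measured, 13.2% passed 2-fold on the lower side and 12.6% on the higher side. This comparison shares the CL1-5 control array with the knockdown comparison, so a low value there lowers one ratio and raises the other. AHRR had the lowest relative log2 ratio, -3.98, and CYP1B1 -2.31, with its 3 measured probe sets from -2.31 to -1.78. AHR had -1.65, TIPARP -1.17 and ARNT -0.70, with 2 of the 5 measured ARNT probe sets past 2-fold. With 16 added the AHR ratio was -0.93, within 2-fold, and AHR did not reach the stricter filter. IDO1 had 0.95, just within 2-fold. KYNU could be compared by 1 probe set only, which read 20.2 in the CL1-5 control against 13.9 in the CL1-0 control.

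Set beside CL1-0 with vector, which no knockdown ratio uses, the G9a shRNA array was higher for AHR (150.4 against 37.0), TIPARP (840.02 against 295), CYP1B1 (1185 against 113), CYP1A1 (21.9 against 10.4) and KYNU (247 against 6.83), and lower for AHRR (27.0 against 100.05). These are signals as deposited, and the G9a shRNA array had the highest trimmed mean. Its values are those already used in the knockdown ratios, and here line and construct differ as well. The comparison is therefore no separate check of those ratios.

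The only split with 2 arrays a side set both CL1-5 arrays against both CL1-0 arrays, and its spread within a line holds the change of G9a. None of the 8 genes tested had an adjusted p under 0.05 by limma (Benjamini-Hochberg over 13953 genes), where 2.39% of all genes did (0.86% higher and 1.53% lower in CL1-5); 2 of the 8, AHRR and ARNT, had an unadjusted p under 0.05, as did 3303 of all 13953 genes. AHRR was lower by 2.68 on the log2 scale in CL1-5 (difference -2.68, limma adjusted p = 0.14), and ARNT had a difference of -0.64 (limma adjusted p = 0.20). AHR had a difference of -0.01 (limma adjusted p = 0.995), since its highest and lowest values were both in CL1-5.

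Other AHR target genes were mixed. Of 15 listed, 14 had a single-gene probe set and 12 were measured in the knockdown comparison, where 4 were at least 2-fold higher and 1 lower (median relative log2 ratio 0.24). Among all genes measured, the shares past 2-fold were 8.13% higher and 7.76% lower in that comparison. They were 5.46% and 3.74% with HA-G9a, and 12.6% and 13.2% between the controls. These shares apply beside the counts of every list below, and the lists were chosen with earlier results of these data known. EREG, an EGF receptor ligand, read 32.3 with G9a shRNA against 1.46 with control shRNA, a lower bound of 2.85. TGFA, another ligand of that receptor, read 60.4 against 11.1 (2.02), ALDH3A1, an aldehyde dehydrogenase, 16.9 against 3.22 (at least 1.91), and STC2, a secreted glycoprotein, 322 against 73.4 (1.71). The lower one was IL1B at 19.4 against 30.1 (-1.05), singled out after its value was seen. NQO1, a quinone reductase that both AHR and NRF2 induce, read 3615 against 2224, a relative log2 ratio of 0.28, also named after its value was seen.

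With HA-G9a, 3 of 11 measured AHR targets were at least 2-fold higher and 1 lower (median 0.11). TGFA read 27.4 with HA-G9a against 5.08 with vector (2.51), ALDH3A1 12.6 against 2.54 (at least 1.99) and HES1, a Notch target, 110 against 55.8 (1.06). STC2 was the lower one, at 21.1 against 47.9 (-1.10). TGFA and ALDH3A1 reached the filter only through the perturbed array in both lines, and EREG only through the G9a shRNA array, so each could be counted only because it was bright there. STC2 was higher with G9a shRNA and lower with HA-G9a. Between the controls 1 of 9 was higher, HES1, and 1 lower, NFE2L2, the gene of NRF2, at 1114 in CL1-5 against 2473 in CL1-0 (-1.14).

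Chaperones, partners and coregulators of AHR mostly lay near the median gene in the knockdown comparison. Of 18 listed, 16 were measured, 0 were at least 2-fold higher and 4 lower (median -0.28). HSP90AB1 and PTGES3, which encode chaperones of the cytosolic receptor complex, had ratios of -0.17 and -0.01 and were named after their values were seen. The lower ones were ARNT2, a relative of ARNT, at 5.79 with G9a shRNA against 27.5 with control shRNA (-2.67), the corepressor gene NRIP1 at 34.7 against 113 (-2.12), EPAS1, a hypoxia-inducible factor that also pairs with ARNT, at 719 against 1354 (-1.33), and the NF-kB gene RELB at 41.3 against 68.7 (-1.15). ARNT2 reached the filter there only through the control shRNA array. With HA-G9a, EPAS1 at 242 against 66.5 (1.94) and NRIP1 at 236 against 115 (1.11) were the 2 of 16 that were higher, and 0 were lower (median 0.03). Between the controls 3 of 16 were higher in CL1-5 and 1 lower (median 0.26): EPAS1 at 4.36, RELB at 1.77, HIF1A at 1.27 and SP1 at -1.09, the last with 2 of 4 probe sets of the other sign.

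**Figure D4:**
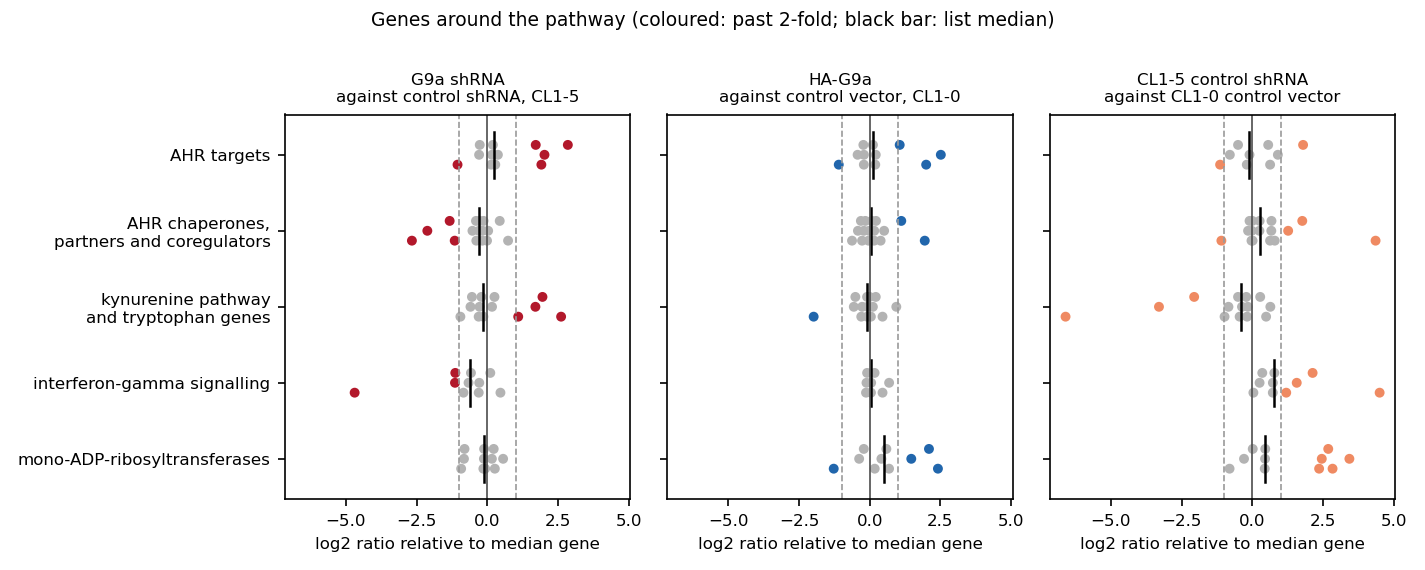
Log2 ratio relative to the median gene (x axis, the same in the 3 panels) of the measured genes of 5 lists around the pathway; coloured points are past 2-fold and black bars are list medians. In the knockdown panel the interferon-gamma list has the lowest median, -0.62, and in the control panel the kynurenine list holds the lowest point, QPRT at -6.60.

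The rest of the kynurenine and tryptophan genes were mostly dim or near the median gene. Of 23 listed, 13 were measured in the knockdown comparison, with 4 at least 2-fold higher and 0 lower (median -0.14). MAOA, a monoamine oxidase, read 173 with G9a shRNA against 21.2 with control shRNA (2.61, with 3 of 3 measured probe sets above 0), and the aromatic amino acid decarboxylase gene DDC 17.3 against 2.20 (at least 1.95). NAPRT, which makes NAD from nicotinic acid, read 33.98 against 7.82 (1.70), and AFMID, the formamidase that yields kynurenine, 18.6 against 6.54 (1.09). DDC, NAPRT and AFMID reached the filter only through the G9a shRNA array. TDO2, the liver enzyme that catalyses the same step as IDO1, stayed at or below 4.86 on all arrays, and HAAO, which acts after KMO and KYNU, was below the floor in both CL1-5 arrays.

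QPRT, the enzyme that turns quinolinate into an NAD precursor, separated the lines. It read 2.57 with G9a shRNA and 3.505 with control shRNA in CL1-5, and 304 with HA-G9a and 344 with vector in CL1-0. Its relative log2 ratio between the controls was -6.60, and G9a shRNA left it dim, unlike KYNU. MAOA read 21.2 in the CL1-5 control against 210.5 in the CL1-0 control (-3.30), and HAAO 1.08 against 14.1 (-2.05, the lower value being below the floor). These were the 3 of 14 lower between the controls, and 0 were higher (median -0.40). Of them, QPRT and HAAO reached the filter there only through the CL1-0 vector array, so each could be counted only because it was bright there. With HA-G9a, HAAO, at 1.62 against 14.1, was the 1 of 14 past 2-fold (median -0.09), and again it reached the filter only through the vector array.

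Genes of interferon-gamma signalling, the pathway of which IDO1 is a target, were lower in part in the knockdown comparison. Of 13 listed, 10 were measured, with 3 lower and 0 higher (median -0.62). GBP1, an interferon-induced GTPase, read 3.90 with G9a shRNA against 75.5 with control shRNA (-4.69), IRF9 133 against 219 (-1.14) and JAK2 69.0 against 113 (-1.13). Here and between the controls, GBP1 reached the filter only through the CL1-5 control array. IDO1, at 0.07, was not among the genes that were lower. With HA-G9a 0 of 8 were past 2-fold (median 0.04). Between the controls 4 of 10 were higher in CL1-5 and 0 lower (median 0.76), among them GBP1 at 75.5 against 2.15, a lower bound of 4.51.

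The mono-ADP-ribosyltransferase genes related to TIPARP did not share its ratio. In the knockdown comparison 0 of 11 measured were past 2-fold in either direction (median -0.11), and PARP8 at -0.93 and PARP10 at -0.83 lay farthest from 0. With HA-G9a, 3 of 10 were higher and 1 lower (median 0.50), against 5.46% and 3.74% of all genes. PARP10 read 20.7 against 4.12, where only 1 of 2 measured probe sets had that sign. PARP8 read 13.5 against 0.23, a lower bound set by the floor, and PARP14 24.7 against 9.44. These 3 reached the filter only through the HA-G9a array, so each could be counted only because it was bright there. The lower one, PARP11, read 22.0 against 56.3. Between the controls 5 of 11 were higher in CL1-5 and 0 lower (median 0.46), against 12.6% and 13.2% of all genes. Of these 5, PARP8, PARP9, PARP10 and PARP14 reached the filter only through the CL1-5 array.

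Over the 4 arrays, the genes whose pattern lay closest to each of the 6 genes bright enough to compare were found among 8883 others, by the root mean square difference of centred log2 values. With 4 arrays, this describes these arrays alone. For AHR the closest was NRARP, a Notch pathway regulator, at a difference of 0.07, reading 452 with G9a shRNA and 39.0 with control shRNA in CL1-5, and 109 and 123 with HA-G9a and vector in CL1-0. For AHRR it was MAP3K2-DT (0.08), for ARNT DDX23 (0.02) and for TIPARP GPR157 (0.20). CYP1B1 lay closest to ADGRG6 (0.63), AKR1C1 (0.68) and AKR1B10 (0.75), and KYNU to AKR1B10 (0.55), MCTP1 (0.77) and VCAN (0.77). AKR1B10, an aldo-keto reductase, was thus among the 3 closest to both, though at larger differences than the closest genes of AHR, AHRR, ARNT and TIPARP. It read 499.8 with G9a shRNA against 15.6 with control shRNA, and 67.4 with HA-G9a against 29.3 with vector. AKR1C1 and its paralogs can cross-hybridise, so its values are uncertain.

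Markers of other cell types were read beside these ratios. Of 10 myeloid markers on the arrays, 2 with G9a shRNA, 2 with control shRNA, 0 with HA-G9a and 1 with vector reached the filter, and their summed signal ran from 39.4 to 58.7. CD14 stayed below the floor on all 4 arrays, and PTPRC at or below 4.17. Endothelial markers were at least 2-fold lower in the knockdown comparison, 5 of 5 measured, where 7.76% of all genes were. Of these 5, CDH5, KDR and CLDN5 reached the filter only through the control shRNA array. The summed signal over 7 genes was 116 with G9a shRNA against 518 with control shRNA, most of the latter from PECAM1 at 318. VWF and TEK were below the floor on both arrays. In CL1-0 the endothelial sum was 51.1 with HA-G9a and 64.6 with vector, so the CL1-5 control stood above the CL1-0 control. Of 8 fibroblast markers the sum was 88.0 with G9a shRNA against 41.9 with control shRNA, and 185 with HA-G9a against 456 with vector, most of the last from COL3A1 at 329.8. The sum of 4 liver markers was 46.6 with G9a shRNA against 46.4 with control shRNA, and 20.1 with HA-G9a against 27.1 with vector.

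The epithelial markers differed within both lines, with a sum over 5 genes of 2955 with G9a shRNA against 3711 with control shRNA and of 2328 with HA-G9a against 652 with vector. In CL1-5, CDH1 (E-cadherin) read 77.6 with G9a shRNA against 2.36 with control shRNA (at least 4.11 on the relative log2 scale), EPCAM 18.1 against 6.06 (1.16) and KRT8 325 against 757 (-1.64). CDH1 and EPCAM reached the filter only through the G9a shRNA array, so each could be counted only because it was bright there. KRT8 and KRT18 reached it on both CL1-5 arrays, and KRT18 lay within 2-fold (-0.64). In CL1-0, KRT18 read 2113 with HA-G9a against 545 with vector (2.04) and KRT8 186 against 67.1 (1.55). KRT19 was below the floor on all 4 arrays. The part of these shifts in the ratios above was not tested.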

How the data were processed

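Total RNA of 4 cell populations, 1 per group, was hybridised to 1 Affymetrix array each. The values are signal intensities on a linear scale, as deposited by the authors for 54675 probe sets; MAS5 is the tool named in the submitters' processing notes, with settings not given in the sources used here. Depth does not apply to arrays: the number of arrays limits the precision.

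Probe sets were named through the platform annotation with symbols updated through RefSeq: 41097 had 1 gene symbol, 1801 several and 11777 were not listed. Probe sets with several genes and 58 others of XIST or Y-linked genes were left out, leaving 19741 genes. Signals were floored at 3.35, put on the log2 scale and kept where the brighter array of a comparison reached 12.5; a gene was represented by its probe set of highest mean signal, and log2 ratios were taken relative to the median gene. With 1 array per group a 2-fold threshold replaces a test. limma 3.58.1 in R 4.3.3 compared both CL1-5 arrays with both CL1-0 arrays, with Benjamini-Hochberg adjustment; on simulated data for that comparison over 13953 genes it called 0 of 50 genes shifted by 2 and 18 of 50 shifted by 3 on the log2 scale. The other steps used Python 3.11.15 with numpy 2.4.6, pandas 2.3.3 and matplotlib 3.10.9. The alternatives concerned the scaling, floor, filter, gene value and arrays included.

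The 9 genes and the lists were chosen with earlier results of these data known. All 9 genes are described with every probe set; of each list, up to 4 measured genes with the largest absolute ratio in a comparison were named, as were defining genes at or near the floor (TDO2, CD14, PTPRC, VWF, TEK and KRT19), and any other is said to have been chosen after its value was seen.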

Additional observations from a re-analysis of the deposited data

Results flagged for a closer look

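KYNU differed in opposite directions with the amount of G9a in the 2 lines. With more G9a minus less G9a, its relative log2 ratio was -5.78 in CL1-5 (control shRNA against G9a shRNA, so the sign is turned relative to the knockdown ratio above) and 2.29 in CL1-0 (HA-G9a against vector). The first is a bound set by the floor. Each line has 1 array a side, and the difference between the lines was not tested.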

How the results depend on the processing

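With 1 array per group no ratio has a replicate error, dim genes rest on the floor, and the choice of scaling moves all genes together. No paired analysis was possible because each group has 1 array and the labels give no replicate numbers. Of the single-gene ratios under the alternatives, 66 of 77 in the knockdown, 64 of 67 in the HA-G9a and 54 of 58 in the control comparison moved by less than the SD between probe sets (0.54, 0.51 and 0.65) and 0 called values changed sign. The ratio of AHRR with HA-G9a is among these but, at -0.84 with 16 added, no longer passed 2-fold. With HA-G9a the 3 that moved more were all of KYNU. The count of the 9 genes higher with G9a shRNA was 6, or 4 with the floor at the median, with 16 added or with the stricter filter. With HA-G9a the count lower was 0 with 16 added and 2 with no filter, and the count higher was 0 with the stricter filter. Between the controls the count lower was 4, or 3 with 16 added or the stricter filter and 6 with no filter.

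Counts over all genes moved more. For G9a shRNA, the higher and lower counts were 2198 and 618 without centring, 409 and 648 with 16 added, 1675 and 1569 with no filter, and 410 and 437 with the stricter filter; the higher count was 679 with the floor at the median. For HA-G9a they were 332 and 204 with the floor at the median, 189 and 81 with 16 added, 1225 and 1095 with no filter, and 124 and 63 with the stricter filter; the higher count was 437 with the mean over probe sets. Between the controls they were 1064 and 929 with 16 added and 851 and 786 with the stricter filter. By limma the higher count was 199 without centring and 266 with the stricter filter, and the counts were 348 and 504 with the floor at the median. Leaving out 1 array gave 0 to 48 higher and 0 to 65 lower: 48 and 65 without the G9a shRNA array, and 0 and 0 without any 1 of the other 3, with the lone array of a line assumed to vary like the other line. None of the 9 genes was called in any of these fits. Beyond what fewer genes or arrays bring, the cause was not tested.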
